A study of Mus musculus with 24 samples.

Results

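Glioma cells were compared with the cells around them in brains of mice that showed no symptoms on the day of collection. The comparison rests on 8 of the 24 bulk RNA-seq libraries of the study, chosen by the ends of their column labels and described across all genes: 4 libraries of sorted fluorescent (GFP) glioma cells and 4 of sorted cells without fluorescence. Per the labels the gliomas were raised by transferring PDGFB, a growth factor, into the ventricles of the embryonic mouse telencephalon, and each tumour code gave 1 library of each population. Tumours 3228A, 3228B and 3228D were taken 33 days after transduction and 3229B at 34 days, and both populations of a code come from the same brain. The surrounding cells were sorted for absence of fluorescence alone, so they hold whatever cell types the dissected tissue contained, and a tumour cell without fluorescence would fall among them. Mouse strain, sex, the promoter that drives the transgene and the number of cells sorted are not given in the sources used here. Wherever 4 values of a population are listed, they stand in the order 3228A, 3228B, 3228D and 3229B.

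PDGF ligands signal through the receptor tyrosine kinase Pdgfra, which is a defining receptor of oligodendrocyte precursor cells (OPC), the dividing cells that give rise to myelinating oligodendrocytes. Receptor activation feeds the MAPK cascade, whose output includes its own brakes, the Sprouty and Spred proteins. Gliomas driven by PDGFB are known for an OPC-like character, and the tissue around them holds microglia, which are the resident macrophages of the brain, infiltrating blood cells, vessels, astrocytes, neurons and myelinating cells.

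The 8 libraries held 1.09e+07 to 1.47e+07 estimated counts each. The populations separated on a first principal component with 64% of the variance, where glioma cells scored -75.6 to -46.3 and surrounding cells 40.8 to 85.8. One surrounding library, that of 3229B, stood apart on the second component (16.2% of the variance) at -67.2, against -20.4 to 40.6 for the other 7. It held 35600 summed CPM (counts relative to the library's depth, scaled by TMM, the trimmed mean of M-values) of 16 mature oligodendrocyte markers, where the other 3 surrounding libraries held 4280 to 7650. It was also highest in mature neuron markers (2210 against 129 to 214), ependymal and choroid plexus markers (1530 against at most 51.8) and erythrocyte markers (2870 against 248 to 379), and lowest in OPC markers (6140 against 9550 to 17100). The TMM factor of this library was 0.723, against 0.99 to 1.1 in the other 7, which raises all its CPM values relative to theirs. The X-inactivation RNA Xist stood at 1700 CPM in glioma and 1350 CPM in surrounding cells of 3228A. In the 6 libraries of the other codes it stood at no more than 2.54 CPM. Xist thus went with the code for 3228A, and it cannot tell the other codes from each other.

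The labels were checked against defining markers. Glioma libraries held some RNA of microglia markers, and whether it came from microglia among the sorted cells was not tested. The summed CPM of 16 microglia markers in glioma cells came to 3%, 6.55%, 2.25% and 6.03% of that in the paired surrounding cells. P2ry12, a purinergic receptor of resting microglia, stood at 13.9, 12.5, 17.7 and 42.8 CPM in glioma cells, against 1070, 621, 1490 and 1240 CPM in surrounding cells. At the other end, Cd3e of T cells was at 0 in 3 glioma libraries and at 0.150 CPM in the fourth, against 1.63 to 3.60 CPM in surrounding cells. Surrounding libraries carried much of the OPC signal too. The 18 OPC markers summed to 18800, 17000, 23800 and 20800 CPM in glioma cells, against 9550, 11700, 17100 and 6140 CPM in surrounding cells. Pdgfb itself did not separate the populations, at 48.0, 60.2, 40.3 and 29.7 CPM in glioma cells against 70.1, 32.7, 56.0 and 27.7 CPM in surrounding cells (log2 fold change -0.02 ± 0.25, SE; edgeR adjusted p = 0.965). Scaled by library totals its log2 fold change was 0.17. The sources used here do not say if reads of the transgene enter the count of this gene.

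**Figure D1:**
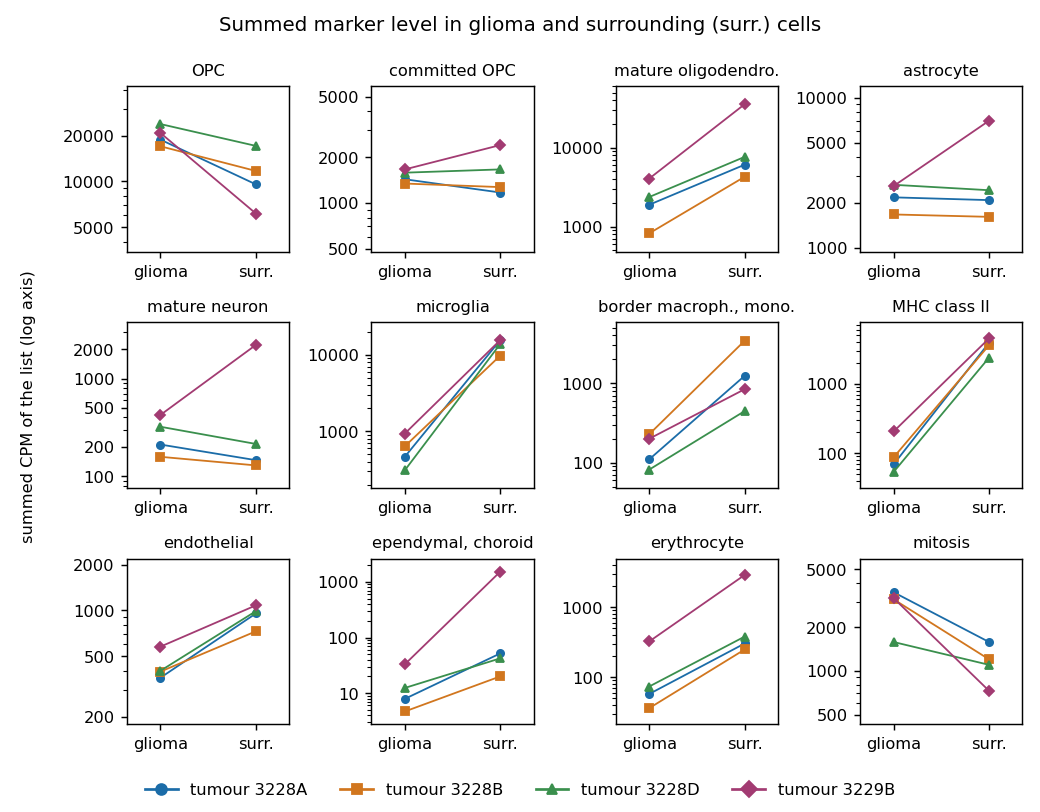
Summed CPM of marker lists in each library on log axes, glioma left and surrounding right, with a line for each tumour. Microglia markers stood at 310 to 934 CPM in glioma cells and far higher in all 4 surrounding libraries, and the surrounding library of 3229B was highest in mature oligodendrocyte, mature neuron, ependymal and erythrocyte markers.

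Of 16441 genes tested, edgeR's quasi-likelihood test with the tumour code as a block called 5299 (32.2%) at a Benjamini-Hochberg adjusted p under 0.05. Glioma cells were higher for 2352 genes (14.3%) and lower for 2947 (17.9%). The sizes were unequal: called genes that were higher had a median log2 fold change of 0.73, and those that were lower one of -1.98. More than 2-fold differences were found for 546 higher and 2202 lower genes, and more than 8-fold for 3 higher and 981 lower genes. All 4 pairs went the same way for 2343 of the higher and 2923 of the lower genes. The 4 glioma values lay outside the range of the 4 surrounding values for 1370 of the higher and 2466 of the lower genes, where 28.3% of all genes tested showed no overlap. The number of higher genes rested strongly on the pairing and on single tumours, with 1074 higher and 2445 lower genes without the block, and 387 higher without 3228A, 963 without 3228B, 1462 without 3228D and 2546 without 3229B. The number of lower genes was 1940 without 3228A. Protein-coding genes made up most of the calls, with 16.0% of 13581 higher and 20.4% lower, against 8.26% and 7.27% of 908 long noncoding RNAs.

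**Figure D2:**
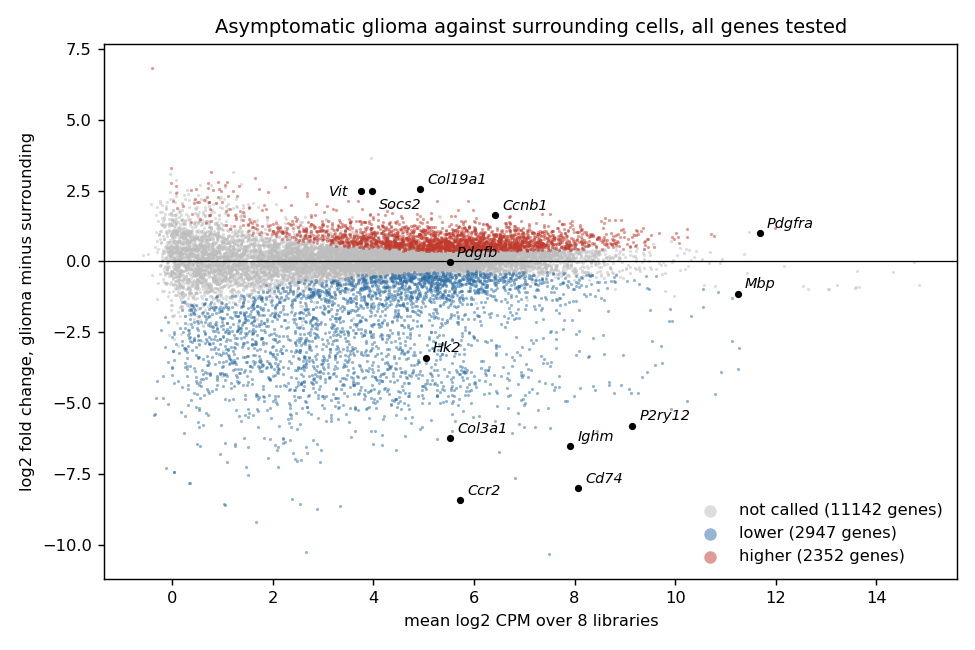
Log2 fold change of glioma over surrounding cells (vertical axis) against mean log2 CPM over the 8 libraries for the 16441 genes tested, coloured by call. The 2947 lower genes spread far further from 0 than the 2352 higher genes: 981 of them lie more than 8-fold below surrounding cells, against 3 higher genes more than 8-fold above.

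Genes with the largest folds among those higher in glioma cells in all 4 pairs were, at a mean log2 CPM of at least 3, a mixed group of matrix, adhesion, signalling and division genes. Col19a1, a collagen of the basement membrane zone, led them with 43.7, 65.3, 51.9 and 41.2 CPM in glioma cells, against 8.37, 17.8, 13.2 and 1.61 CPM in surrounding cells (log2 fold change 2.54 ± 0.42, adjusted p = 0.00503). Vit, which encodes the matrix protein vitrin, stood at 24.1, 34.5, 14.4 and 17.4 CPM in glioma cells, against 8.37, 3.30, 2.88 and 2.37 CPM in surrounding cells (2.50 ± 0.32, adjusted p = 0.00165). Socs2, a feedback inhibitor of cytokine and growth hormone signalling, stood at 24.3, 21.4, 33.3 and 25.3 CPM in glioma cells, against 5.01, 8.08, 2.81 and 3.69 CPM in surrounding cells (2.48 ± 0.34, adjusted p = 0.00242). For these 3 genes the lowest glioma library lay above the highest surrounding library. The other 12 were Pcdhb2, Hhipl2, St6gal2, Slc38a4, Aspm, Pcdhb5, Pcdhb11, Pcdhb3, Fstl4, Moxd1, Adamts9 and Atp10b, with log2 fold changes of 1.78 to 2.13. They include 4 genes of the protocadherin beta family, the sialyltransferase St6gal2, the amino acid transporter Slc38a4 and the spindle protein Aspm. By the same rule the 15 lower genes with the largest folds had log2 fold changes of -8.64 to -5.98. Immunoglobulin genes such as Ighm, described below, were left out of this ranking. The 15 were Plac8, Ccr2, Cd74, H2-Aa, H2-Eb1, Dcn, Chil3, Ccr1, Il1b, Col3a1, Siglece, Plbd1, Mlxipl, H2-Ab1 and Adora3, among them monocyte genes, chemokine receptors, MHC class II genes and matrix genes of fibroblasts. In genome build GRCm38, Col19a1 lies on chromosome 1 at 24261890 to 24587472, Vit on chromosome 17 at 78508064 to 78627408 and Socs2 on chromosome 10 at 95385362 to 95417180.

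OPC genes were moderately higher in glioma cells, with 11 of 18 markers higher and 1 lower (median log2 fold change 0.72, against 0.05 over all genes tested). Pdgfra (chromosome 5, 75152292 to 75198215) stood at 3860, 3270, 5140 and 4730 CPM in glioma cells, against 1840, 2190, 3920 and 1220 CPM in surrounding cells (0.99 ± 0.29, adjusted p = 0.0395). The glioma library was higher in each pair, but the surrounding library of 3228D lay above the glioma libraries of 3228A and 3228B. Ptprz1, a receptor phosphatase of OPC and glia, stood at 5100, 4890, 6440 and 5340 CPM in glioma cells, against 2200, 3040, 4170 and 1090 CPM in surrounding cells, with no overlap (1.20 ± 0.32, adjusted p = 0.0279). The lineage factor Olig2 stood at 551, 463, 570 and 574 CPM in glioma cells, against 320, 332, 447 and 207 CPM in surrounding cells (0.77 ± 0.21, adjusted p = 0.0299). Sox10 (0.51 ± 0.16), Sox6 (1.16 ± 0.23), the AMPA receptor partner Cacng4 (0.68 ± 0.20) and the proteoglycan Vcan (0.93 ± 0.27) rose with them. Gpr17, a receptor of precursors about to differentiate, did not pass, with 613, 294, 797 and 754 CPM in glioma cells against 353, 311, 794 and 454 CPM in surrounding cells (adjusted p = 0.207). Susd5 went against its list, with 12.0, 2.43, 11.5 and 14.6 CPM in glioma cells and 22.1, 9.57, 32.7 and 29.4 CPM in surrounding cells (-1.31 ± 0.21, adjusted p = 0.00459).

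In bulk libraries, fewer cells of a type and less RNA per cell cannot be told apart, and the same holds for every marker below. The OPC list had 1 higher and 0 lower genes without the block, and its higher count was 0 without 3228A, 3 without 3228B and 6 without 3228D, while 13 were higher without 3229B. The medians of the 18 markers within the pairs, as differences of log2(CPM + 1), were 0.79, 0.36, 0.42 and 1.41. The largest of them belongs to 3229B, whose surrounding library had the lowest OPC sum. The part of the other cells of that library in the OPC difference was not tested.

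Markers of the next steps of the lineage divided by maturity. Of 12 markers of committed precursors, 0 were higher and 4 lower (median -0.25). Enpp6, expressed as precursors begin to differentiate, stood at 6.97, 4.08, 7.12 and 49.9 CPM in glioma cells, against 26.3, 30.4, 62.1 and 133 CPM in surrounding cells (-2.30 ± 0.30, adjusted p = 0.00195). Bcas1, another marker of that step, stood at 367, 296, 331 and 339 CPM in glioma cells, against 250, 214, 248 and 794 CPM in surrounding cells (adjusted p = 0.886). The list had 1 lower gene without the block, and 1 higher gene without 3229B. The surrounding library of 3229B was above and the other 3 below the glioma libraries for Bcas1. Of 16 markers of mature oligodendrocytes, 0 were higher and 13 lower, with a median of -3.91. Mog, a myelin surface glycoprotein (chromosome 17, 37010743 to 37023398), stood at 2.45, 1.73, 5.65 and 17.2 CPM in glioma cells, against 49.4, 48.1, 96.4 and 289 CPM in surrounding cells (-4.27 ± 0.17, adjusted p = 7.93e-05). Mal, a myelin membrane protein, fell 22.1-fold. Without the block 12 were lower, and without single tumours 12 or 13.

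A pair of major myelin transcripts, Mbp and Mobp, did not pass. Mbp, the myelin basic protein (chromosome 18, 82475146 to 82585637), stood at 896, 208, 1020 and 1350 CPM in glioma cells, against 1400, 437, 879 and 13100 CPM in surrounding cells (-1.14 ± 0.55, adjusted p = 0.155). Mobp stood at 334, 90.0, 439 and 588 CPM in glioma cells, against 475, 243, 403 and 5500 CPM in surrounding cells (-1.22 ± 0.53, adjusted p = 0.125). Both ran the other way in 3228D and had by far their highest value in surrounding cells of 3229B.

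The list of PDGF and MAPK response genes went in both directions, with 9 of 18 higher and 4 lower (median 0.60). It also holds ligand and receptor genes of the PDGF family, such as Pdgfa and Pdgfrb. Feedback inhibitors led the higher ones. Spry2 stood at 95.9, 139, 96.6 and 96.1 CPM in glioma cells, against 59.0, 84.3, 53.9 and 25.5 CPM in surrounding cells (1.03 ± 0.22, adjusted p = 0.0136). Spry1 (1.08 ± 0.26), Spry4 (1.06 ± 0.29), Spred1 (0.62 ± 0.16) and Spred2 (0.68 ± 0.15) rose likewise, and none of these 5 overlapped between the populations. Ccnd1, the cyclin that couples growth factor signals to the cell cycle, rose too (1.0 ± 0.23), as did the ETS factors Etv1 (0.65 ± 0.15) and Etv4 (0.67 ± 0.18). Dusp6, a phosphatase that also answers to MAPK output, went the other way, with 122, 95.9, 117 and 151 CPM in glioma cells and 192, 158, 158 and 163 CPM in surrounding cells (-0.48 ± 0.14, adjusted p = 0.0420). The other lower members were Pdgfa (-0.54 ± 0.16), Errfi1 (-1.15 ± 0.23), an inhibitor of the EGF receptor, and Pdgfrb (-4.43 ± 0.66), the receptor of pericytes. The higher count was 3 without the block, 0 without 3228A and 5 without 3228B, and the lower count was 2 without the block and without 3228A, 3228B or 3228D.

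Ionotropic and metabotropic glutamate receptor genes, known to be expressed by OPC, were higher for 11 of 19 tested members and lower for 2 (median 0.76). Gria2, an AMPA receptor subunit, stood at 580, 546, 803 and 769 CPM in glioma cells, against 279, 328, 477 and 188 CPM in surrounding cells (1.14 ± 0.24, adjusted p = 0.0129). Every glioma value was above every surrounding value. Grm5, a metabotropic receptor, rose most of the list (1.35 ± 0.29), and 5 kainate receptor genes, Grik1 to Grik5, rose by 0.49 to 1.09 on the log2 scale. Grm3 (-2.19 ± 0.30) and Grin2c (-1.70 ± 0.35) fell; both are known from astrocytes. In the list of chondroitin and hyaluronan matrix genes, 6 of 15 were higher and 3 lower, including the lectican Ncan (0.70 ± 0.18) and the sulfotransferase Chst11 (0.94 ± 0.26) on the higher side and Cd44, the hyaluronan receptor (-1.23 ± 0.27), on the lower. The higher count of glutamate receptors was 1 without the block and 0 without 3228A, and the lower count was 1 in both. The higher count of the matrix list was 0 without the block and without 3228A, 1 without 3228B and 4 without 3228D, and its lower count was 1 without the block and without 3228A.

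Clustered protocadherins of the beta family, adhesion proteins encoded side by side on chromosome 18, were higher for 18 of 21 genes and lower for none (median 1.24). Pcdhb2 (37294812 to 37297624) stood at 20.8, 23.9, 25.2 and 12.5 CPM in glioma cells, against 5.18, 5.94, 7.69 and 1.51 CPM in surrounding cells (2.13 ± 0.24, adjusted p = 0.000906). Pcdhb14 stood at 40.0, 42.3, 64.1 and 27.8 CPM in glioma cells, against 16.5, 16.9, 26.7 and 8.14 CPM in surrounding cells (1.40 ± 0.14, adjusted p = 0.000551). Neither overlapped between the populations. Pcdhb13, Pcdhb15 and Pcdhb22 did not pass, with log2 fold changes of 0.50 to 0.61. These genes share long stretches of sequence, and estimated counts divide shared reads between them, so values of single members are uncertain. The count was 12 without the block, and it lay between 9 (without 3228A) and 16 (without 3228B) when 1 tumour was left out.

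Neural progenitor and proneural genes included 7 of 18 that were higher and 3 that were lower (median 0.52). Sox11, a factor of immature neural cells, stood at 154, 251, 102 and 114 CPM in glioma cells, against 63.3, 116, 51.8 and 37.9 CPM in surrounding cells (1.24 ± 0.14, adjusted p = 0.000951). Sox2 (0.82 ± 0.17), the fatty acid binding protein Fabp7 (0.83 ± 0.13), Nfib (0.82 ± 0.14) and the Notch ligands Dll1 (0.70 ± 0.19) and Dll3 (0.91 ± 0.22) were among the others that rose. The 3 lower members were Id1, Id3 and Btg2. Id3, an inhibitor of basic helix-loop-helix factors that answers to BMP signals, stood at 3.98, 2.78, 2.78 and 3.89 CPM in glioma cells, against 14.4, 11.9, 9.84 and 19.9 CPM in surrounding cells (-2.03 ± 0.20, adjusted p = 0.000482). The higher count was 3 without the block and 4 without 3228A or 3228B. Among 10 tested neuroblast markers, Dcx, Elavl4 and Nrxn3 rose and Dlx1 fell. Without 3229B, and in limma voom, 5 were higher. Dcx, a microtubule protein of migrating neuroblasts that OPC also express, stood at 318, 230, 438 and 345 CPM in glioma cells, against 135, 137, 226 and 89.3 CPM in surrounding cells (1.22 ± 0.21, adjusted p = 0.00625). Dlx1, a factor of interneuron progenitors, was nearly all in surrounding cells of 3229B, at 20.4 CPM against 0.0740 to 2.80 CPM in the other 3 and at most 1.12 CPM in glioma cells, and no gene of the list was called lower without 3229B, without 3228A, without 3228B or without the block. Markers of mature neurons were called in 1 of 11 cases, the neurofilament Nefm (1.02 ± 0.31, adjusted p = 0.0438), which was not called without 3228A, 3228B or 3228D, while 4 were higher without 3229B. Rbfox3, a splicing factor of neurons, stood at 2.53, 0.781, 1.96 and 3.96 CPM in glioma cells, against 1.12, 1.48, 2.29 and 19.3 CPM in surrounding cells (-0.65 ± 0.57, adjusted p = 0.426).

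**Figure D3:**
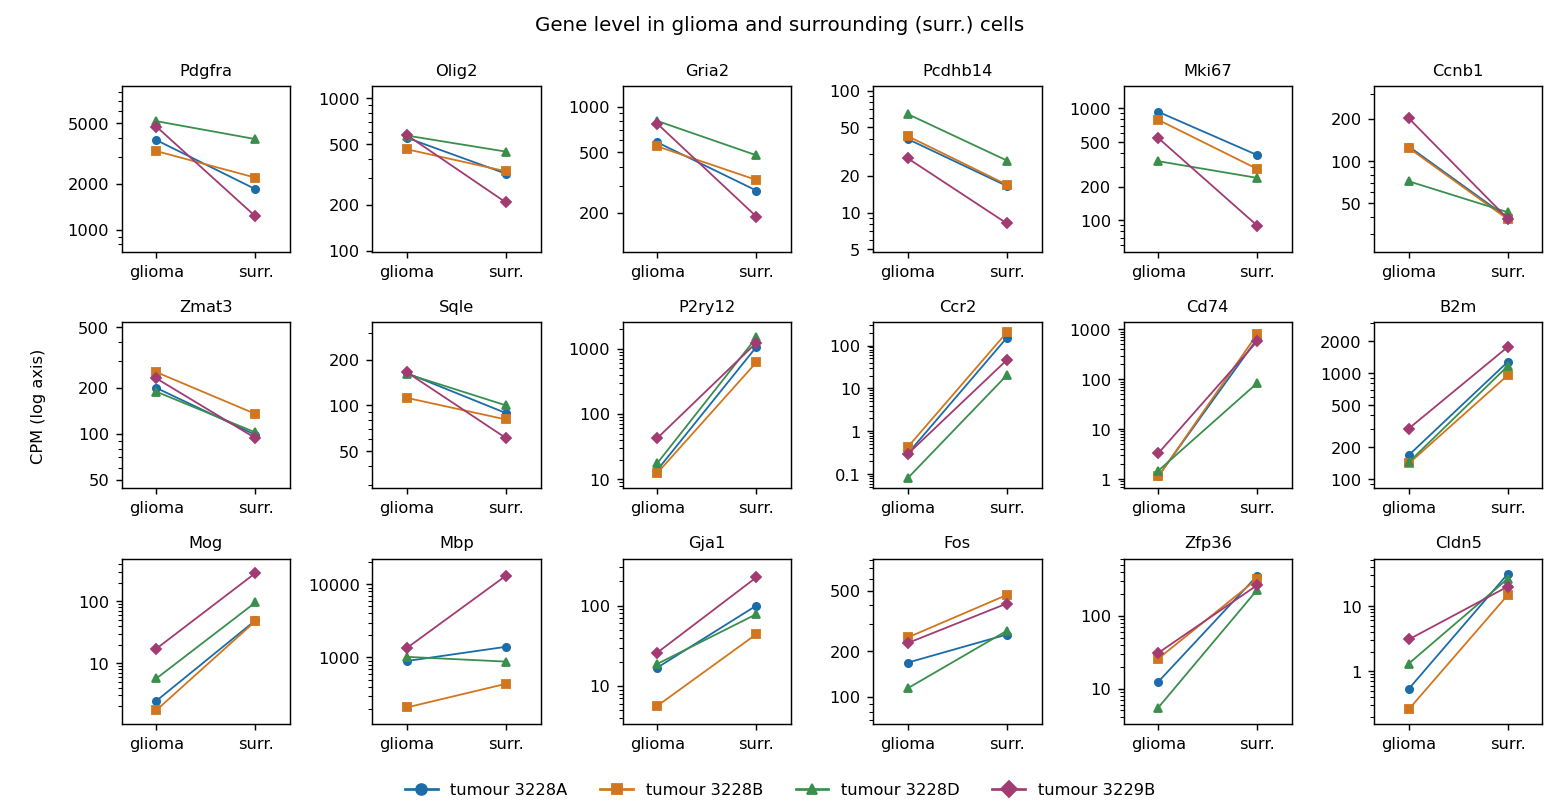
CPM of 18 genes in each library on log axes, glioma left and surrounding right, with a line for each tumour. Pdgfra, Olig2, Gria2, Pcdhb14, Mki67, Ccnb1, Zmat3 and Sqle were higher in glioma cells in each pair, P2ry12, Ccr2, Cd74, B2m, Mog, Gja1, Fos, Zfp36 and Cldn5 were lower in each pair, and Mbp went both ways.

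Genes of mitosis rose together: 25 of 26 were higher and none was lower, with a median log2 fold change of 1.19. Mki67, a protein of the surface of mitotic chromosomes (chromosome 7, 135689784 to 135716361), stood at 930, 789, 337 and 542 CPM in glioma cells, against 382, 287, 239 and 89.4 CPM in surrounding cells (1.45 ± 0.32, adjusted p = 0.0153). The glioma library of 3228D was the lowest of its group and lay below the surrounding library of 3228A. Ccnb1, the cyclin that drives entry into mitosis (chromosome 13, 100778650 to 100786570), stood at 127, 124, 71.7 and 202 CPM in glioma cells, against 39.3, 38.4, 43.1 and 38.7 CPM in surrounding cells, with no overlap (1.62 ± 0.26, adjusted p = 0.00415). The kinetochore protein Cenpf (1.67 ± 0.27), the cyclin Ccna2 (1.57 ± 0.26) and the activator of the anaphase-promoting complex Cdc20 (1.16 ± 0.20) rose alike. Anln, a scaffold of the dividing cell's contractile ring that oligodendrocytes also express, was the 1 exception, with 53.1, 46.7, 28.5 and 61.2 CPM in glioma cells and 54.3, 56.0, 74.9 and 117 CPM in surrounding cells (adjusted p = 0.0734). Summed over the list, glioma 3228D had 1580 CPM and the other 3 glioma libraries 3110 to 3480 CPM. The count was 22 without the block, 11 without 3228A and 15 without 3228B. In DESeq2, in limma voom and at a count minimum of 50, 25 were higher and 1 was lower.

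Promoters of mitosis genes often carry a CCAAT box and a cell cycle homology region (CHR), elements known to be bound by NF-Y and by the DREAM and MMB complexes. Their promoters are shown because the mitosis genes moved together. RefSeq promoters of build GRCm38.p6, from 250 bases before the start site to 50 after it, were found for 20 of the 25 called genes. TTTGAA or TTTAAA, taken as the CHR, and CCAAT were searched on both strands. A CHR was present in 18 of the 20 genes (90.0%), against 22.6% of 11194 tested genes with a promoter, and CCAAT in 18 of 20 (90.0%), against 43.0%. Both occurred in 17 of the 20 (85.0%), against 9.28%. Matches are words in these windows and do not show that a factor is bound. The 3 promoters below, those of the called mitosis genes with the smallest p that had an entry, have their CHR and CCAAT words in capitals and are written 5′ to 3′ on the strand of the gene, which is the minus strand for each. Ccnb1 lies at chr13:100786437-100786736, Cenpf at chr1:189688037-189688336 and Cdc20 at chr4:118437294-118437593.
Ccnb1: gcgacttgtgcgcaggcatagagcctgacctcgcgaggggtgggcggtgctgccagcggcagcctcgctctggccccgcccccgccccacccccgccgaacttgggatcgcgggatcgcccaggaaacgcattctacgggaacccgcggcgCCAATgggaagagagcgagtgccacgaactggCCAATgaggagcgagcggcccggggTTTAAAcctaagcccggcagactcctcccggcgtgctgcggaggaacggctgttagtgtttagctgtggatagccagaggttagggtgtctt
Cenpf: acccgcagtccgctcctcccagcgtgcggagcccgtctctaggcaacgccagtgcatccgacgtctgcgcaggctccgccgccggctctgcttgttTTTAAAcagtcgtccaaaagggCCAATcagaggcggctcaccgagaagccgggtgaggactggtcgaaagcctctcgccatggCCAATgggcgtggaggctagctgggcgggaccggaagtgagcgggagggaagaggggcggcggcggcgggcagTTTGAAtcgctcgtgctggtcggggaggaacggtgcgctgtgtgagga
Cdc20: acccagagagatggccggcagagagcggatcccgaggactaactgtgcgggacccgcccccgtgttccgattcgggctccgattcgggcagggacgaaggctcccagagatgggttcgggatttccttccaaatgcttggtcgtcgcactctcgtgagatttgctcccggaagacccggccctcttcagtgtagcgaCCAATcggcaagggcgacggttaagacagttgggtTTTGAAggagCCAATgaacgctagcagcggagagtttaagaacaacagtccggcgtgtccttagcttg

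Distances are counted from the RefSeq start site. The GENCODE start sites of Ccnb1 (100786570) and Cdc20 (118437352) lie further upstream, inside these windows. In Ccnb1 the CHR begins 42 bases before the RefSeq start site and the CCAAT words 99 and 67 bases before it. In Cdc20 the CHR begins 18 bases before the start site, with CCAAT words 53 and 8 bases before it. Cenpf has a TTTAAA word 154 bases before the start site and a TTTGAA word just past it, with CCAAT words 132 and 71 bases before. The TTTGAA and CCAAT words lie on the strand of the gene, while TTTAAA reads the same on both strands.

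Genes of DNA replication were higher for 17 of 26 and lower for none (median 0.79). Rrm2, a subunit of the reductase that supplies deoxynucleotides, stood at 122, 127, 62.5 and 119 CPM in glioma cells, against 53.1, 46.3, 37.6 and 31.2 CPM in surrounding cells, with no overlap (1.33 ± 0.20, adjusted p = 0.00337). Of the MCM helicase genes, Mcm2, Mcm4, Mcm5, Mcm6 and Mcm7 rose by 0.43 to 0.90 on the log2 scale. Mcm3 stood at 102, 128, 42.5 and 53.7 CPM in glioma cells, against 101, 90.2, 50.3 and 34.6 CPM in surrounding cells, and did not pass (adjusted p = 0.350). The count was 6 without the block and without 3228A, and 5 without 3228B. Genes of Myc targets and the nucleolus were called in 3 cases higher and 1 lower of 18. Nop58 (0.55 ± 0.12) was among the higher ones, and none was called without 3228A or without 3228B. The lower gene was not called without the block or without 3228D, and 1 gene was higher without the block.

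Sterol synthesis genes were higher in 14 of 18 cases and lower in none, though by little (median 0.51). Sqle, the squalene epoxidase, stood at 163, 112, 161 and 165 CPM in glioma cells, against 89.0, 80.8, 100 and 61.0 CPM in surrounding cells, with no overlap (0.86 ± 0.18, adjusted p = 0.0114). Hmgcs1 (0.65 ± 0.14), Lss (0.75 ± 0.15) and the regulator Srebf2 (0.49 ± 0.12) rose too. The count was 3 without the block, 1 without 3228A, 8 without 3228B and 4 without 3228D.

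Targets of p53 did not move as 1 group, with 8 of 17 tested higher and 4 lower (median 0.21). Zmat3, an RNA-binding target of p53 (chromosome 3, 32334792 to 32366014), stood at 200, 254, 189 and 231 CPM in glioma cells, against 98.2, 135, 102 and 93.6 CPM in surrounding cells, with no overlap (1.03 ± 0.13, adjusted p = 0.00142). Eda2r, a death receptor of the TNF receptor family, stood at 68.0, 90.0, 41.0 and 77.1 CPM in glioma cells, against 24.5, 44.1, 13.5 and 15 CPM in surrounding cells (1.6 ± 0.22, adjusted p = 0.00210). Its glioma value of 3228D lay below the surrounding value of 3228B. Plk2 (1.03 ± 0.20), Trp53inp1 (0.68 ± 0.14), Ccng1 (0.51 ± 0.12) and Sesn2 (0.81 ± 0.24) rose as well. Cdkn1a, the main cell cycle inhibitor among the targets, passed narrowly (0.37 ± 0.12, adjusted p = 0.0496). Pmaip1, Sesn1, Perp and Fas were lower, by 0.70 to 2.20 on the log2 scale, and Mdm2 did not pass (-0.00 ± 0.11, adjusted p = 0.987). Cdkn2a, counted in the list and the tumour suppressor locus of p16 and p19Arf (chromosome 4, 89274471 to 89294653), stood at 6.21, 14.7, 6.14 and 8.07 CPM in glioma cells, against 6.21, 7.09, 2.15 and 2.37 CPM in surrounding cells (1.06 ± 0.33, adjusted p = 0.0463). The populations of 3228A were nearly equal. Higher and lower counts of the list were 3 and 0 without the block and without 3228A, 4 and 1 without 3228B, and 4 and 2 without 3228D.

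Housekeeping groups differed in how many of their genes were called. No gene of 30 cytoplasmic ribosomal protein genes (median -0.33) and none of 20 oxidative phosphorylation genes (median -0.06) was called, where the edgeR test called 32.2% of all genes. At an unadjusted p under 0.05 stood 9 ribosomal protein genes and 0 oxidative phosphorylation genes. DESeq2 and limma voom each called 6 ribosomal protein genes lower, and limma voom called 1 oxidative phosphorylation gene higher where DESeq2 called none. Without 3229B, 7 ribosomal protein genes were lower and 2 oxidative phosphorylation genes higher in edgeR. The median of the oxidative phosphorylation genes was 0.13 when scaled by library totals. Of 15 glycolysis genes 7 were lower and none was higher (median -0.13), but scaling by library totals, which shifts the median of all genes from 0.05 to 0.23, turns that median to the other side at 0.06 and leaves 1 lower. Hk2, a hexokinase known from activated and myeloid cells, was that gene, with 3.98, 14.8, 2.62 and 4.04 CPM in glioma cells and 89.1, 74.1, 43.1 and 31.3 CPM in surrounding cells (-3.40 ± 0.37, adjusted p = 0.000839). Without 3229B, and in limma voom, 2 glycolysis genes were higher. The lower count of the list was 1 without the block, without 3228A or without 3228D and 2 without 3228B. Of 13 tested hypoxia genes 7 were lower (median -0.79), among them Ndrg1 (-3.52 ± 0.23), which oligodendrocytes also express, and the glucose transporter Slc2a1 (-1.89 ± 0.22), also an endothelial gene, while Vegfa did not pass (-0.22 ± 0.17, adjusted p = 0.359).

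Microglia genes were lower for all 16 markers tested, with a median log2 fold change of -4.65. Cx3cr1, the fractalkine receptor (chromosome 9, 119901616 to 120069879), stood at 39.2, 63.4, 23.4 and 76.0 CPM in glioma cells, against 1620, 1020, 1230 and 875 CPM in surrounding cells (-4.64 ± 0.43, adjusted p = 0.000420). P2ry12, with the values given above, fell 55.2-fold, Tmem119 57.6-fold and the CSF1 receptor Csf1r 36.7-fold. Sall1, a transcription factor of microglia, fell least, by 2.13 on the log2 scale (± 0.24), with 61.1, 43.9, 52.4 and 55.1 CPM in glioma cells and 346, 201, 309 and 131 CPM in surrounding cells. All 16 were called lower in each of the 14 alternative settings run for this list, and no marker overlapped between the populations. Ptprc, the CD45 antigen of leukocytes, stood at 5.82, 9.80, 4.58 and 12.8 CPM in glioma cells, against 310, 278, 199 and 163 CPM in surrounding cells (-4.89 ± 0.37, adjusted p = 0.000180). The word GAGGAAG, bound by the myeloid factor PU.1, was present on either strand in the promoters of 4 of 11 microglia markers with an entry (36.4%), against 15.9% of tested genes with a promoter. The promoters of P2ry12, Aif1 and Olfml3, the markers with the smallest p that had an entry, did not hold it.

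Genes of activated microglia were lower in 13 of 16 cases (median -2.92). Apoe, a lipid carrier of glia and macrophages, fell 8.30-fold and Itgax 21.9-fold, and the inflammatory cytokine Il1b stood at 0.536, 0.781, 0.245 and 2.39 CPM in glioma cells, against 80.9, 128, 16.7 and 79.2 CPM in surrounding cells (-6.27 ± 0.41, adjusted p = 0.000129). Cd9, Gpnmb and Lpl did not pass, and without 3228D 1 gene of the list was higher. Cd9, a tetraspanin that glial cells also express, stood at 484, 510, 489 and 844 CPM in glioma cells, against 524, 510, 690 and 925 CPM in surrounding cells (adjusted p = 0.368).

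Of 15 markers of border macrophages and monocytes, 13 passed the filter and 11 were lower (median -4.38). Ccr2, the chemokine receptor of infiltrating monocytes (chromosome 9, 124101950 to 124113557), stood at 0.306, 0.434, 0.0818 and 0.299 CPM in glioma cells, against 152, 203, 20.4 and 46.1 CPM in surrounding cells (-8.41 ± 0.27, adjusted p = 7.93e-05). Surrounding cells of 3228D held the least Ccr2. Cd163, a scavenger receptor used as a marker of border macrophages, went the other way from the rest of its list, with 18.5, 16.7, 17.4 and 14.1 CPM in glioma cells and 4.06, 8.91, 9.69 and 14.9 CPM in surrounding cells, and did not pass (0.94 ± 0.34, adjusted p = 0.0786). DESeq2, limma voom, scaling by library totals and the fit without 3229B each called 1 gene of the list higher. S100a4 did not pass either. Many lymphoid and granulocyte genes did not pass the filter, and a gene that passed it through surrounding cells alone had to be lower. The same holds for markers near 0 in glioma cells in any other list. The filter passed 5 of 15 markers of T and NK cells, 3 of 7 of B cells and 5 of 8 of neutrophils, and each that passed was lower. Without 3228A, 3 T and NK cell markers were lower, and without 3228D 8 were. Ighm, the heavy chain of IgM, stood at 2.22, 1.39, 3.27 and 5.31 CPM in glioma cells, against 197, 87.8, 111 and 1520 CPM in surrounding cells (-6.51 ± 0.54, adjusted p = 0.000252). Cd79a of B cells was at no more than 1.61 CPM in any library. Of 10 dendritic cell markers 9 were lower, among them Flt3 (-6.26 ± 0.53).

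MHC class II genes, which present antigen to helper T cells, were lower for all 9 genes tested (median -5.61). Cd74, the invariant chain, stood at 1.15, 1.13, 1.47 and 3.29 CPM in glioma cells, against 657, 812, 84.5 and 582 CPM in surrounding cells (-8.01 ± 0.62, adjusted p = 0.000197). H2-Aa fell 200-fold, H2-Ab1 66.2-fold and the master regulator Ciita 21.3-fold. In surrounding cells of 3228D, Cd74, H2-Aa, H2-Ab1, H2-Eb1 and Ciita were each lower than in the other 3 surrounding libraries, as was Ccr2, while the microglial genes P2ry12 and Gpr34 were not. Genes of MHC class I were lower for all 11 (median -2.77). B2m, the light chain of class I, stood at 169, 141, 145 and 301 CPM in glioma cells, against 1280, 958, 1170 and 1770 CPM in surrounding cells (-2.81 ± 0.16, adjusted p = 0.000108). H2-K1 and H2-D1, the classical heavy chains, fell 9.13-fold and 6.67-fold, and their reads may be divided among near-identical class I genes. Interferon response genes were lower for 17 of 20 and higher for none (median -2.07). Mx1, an antiviral GTPase, stood at 0.383, 0.0867, 0.0818 and 0.224 CPM in glioma cells, against 20.7, 9.24, 4.44 and 4.83 CPM in surrounding cells (-5.51 ± 0.40, adjusted p = 0.000153). Ifit2 did not pass, with 126, 94.1, 127 and 116 CPM in glioma cells and 104, 83.9, 97.2 and 50.8 CPM in surrounding cells (adjusted p = 0.0869). Microglia markers fell in the same comparison, and their part in the MHC and interferon differences was not tested.

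Vascular genes were lower as well, with 15 of 16 endothelial markers (median -3.18) and 8 of 9 tested markers of pericytes and smooth muscle (median -2.50). Cldn5, a tight junction protein of the blood-brain barrier, stood at 0.536, 0.260, 1.31 and 3.07 CPM in glioma cells, against 31.2, 14.8, 26.3 and 19.9 CPM in surrounding cells (-4.35 ± 0.53, adjusted p = 0.00135). Glioma cells of 3229B held the most of this and of Flt1, Pecam1 and Cdh5. Mfsd2a, a lipid transporter of the same endothelium, was the exception, with 50.3, 26.6, 102 and 166 CPM in glioma cells and 33.5, 30.3, 87.7 and 90.2 CPM in surrounding cells (0.38 ± 0.19, adjusted p = 0.160). Pdgfrb, the receptor through which PDGFB recruits pericytes, stood at 0.766, 0.347, 0.736 and 1.27 CPM in glioma cells, against 22.3, 48.5, 11.6 and 6.63 CPM in surrounding cells (-4.43 ± 0.66, adjusted p = 0.00331). Cspg4, which is also an OPC gene, was the pericyte marker that was not called lower (0.95 ± 0.30, adjusted p = 0.0521). The lower count of the pericyte list was 4 without 3228A and 5 without 3228B. Without 3229B, in DESeq2, in limma voom and at a count minimum of 1, 1 gene of the pericyte list was higher.

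Fibroblast and matrix genes were much lower in glioma cells. Of 11 fibroblast and meningeal markers 9 passed the filter, and of these 7 were lower and 1, Pdgfra, was higher (median -3.86). Markers near 0 in glioma cells, such as Col3a1, passed through surrounding cells, so that their direction was set by the filter. The Pdgfra call was lost without the block, without 3228A and without 3228B. Col3a1, a fibrillar collagen, stood at 0.153, 2.69, 0.164 and 0.748 CPM in glioma cells, against 27.4, 312, 12.7 and 13.3 CPM in surrounding cells (-6.23 ± 0.46, adjusted p = 0.000168). The surrounding library of 3228B held the most by far, and it was also the highest of the 4 in Col1a1, Col1a2, Dcn and Lum. Of 17 extracellular matrix genes 11 were lower and none was higher (median -2.03). Sparc, a matrix glycoprotein that microglia and vessels also express, stood at 93.7, 87.0, 111 and 164 CPM in glioma cells, against 1490, 1000, 1410 and 1810 CPM in surrounding cells (-3.66 ± 0.17, adjusted p = 7.93e-05). The laminin genes Lama4 (0.37 ± 0.23) and Lamc1 (-0.21 ± 0.21), the collagen Col5a1 (-0.01 ± 0.76) and the tenascin Tnc (0.07 ± 0.41) did not pass.

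Astrocyte genes divided into those that differed and those that did not, with 7 of 14 lower and none higher (median -1.23). Gja1, the main astrocytic gap junction protein, stood at 16.9, 5.64, 18.8 and 26.0 CPM in glioma cells, against 100, 44.1, 78.3 and 225 CPM in surrounding cells, with no overlap (-2.67 ± 0.20, adjusted p = 0.000180). The water channel Aqp4 fell by 1.51 ± 0.21 and the secreted protein Agt by 2.79 ± 0.30 on the log2 scale. Gfap, the intermediate filament of astrocytes, did not pass, with 93.9, 104, 78.6 and 64.3 CPM in glioma cells and 163, 94.8, 57.2 and 314 CPM in surrounding cells (-0.60 ± 0.44, adjusted p = 0.336). The glutamate transporters Slc1a2 (-0.05 ± 0.31) and Slc1a3 (-0.10 ± 0.22) did not pass either, and the lower of them, Slc1a3, was at 276 CPM or more in every library. The count was 4 without the block. Ependymal markers were lower for 6 of 7 tested and erythrocyte markers for all 5. Ttr of the choroid plexus was at 22.8 CPM in glioma cells of 3229B and at no more than 0.0867 CPM in the other glioma libraries, against 1420 CPM in surrounding cells of 3229B and 1.73 to 3.28 CPM in the other surrounding libraries. Hbb-bs, a haemoglobin chain, stood at 17.8, 13.1, 23.3 and 114 CPM in glioma cells, against 63.7, 69.5, 113 and 1070 CPM in surrounding cells (-2.45 ± 0.24, adjusted p = 0.000500). Both populations of 3229B thus had the most of these transcripts, and reads of near-identical haemoglobin genes may be divided among them. The erythrocyte count was 2 without the block.

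Immediate early genes and genes known to answer to cell dissociation were lower for 15 of 20 and higher for 1 (median -1.11). Sizes varied widely. Fos stood at 168, 246, 114 and 226 CPM in glioma cells, against 257, 468, 272 and 411 CPM in surrounding cells, less than 2-fold lower (-0.91 ± 0.15, adjusted p = 0.00433). Zfp36, which speeds the decay of cytokine mRNAs, stood at 12.4, 25.8, 5.48 and 30.9 CPM in glioma cells, against 356, 322, 228 and 264 CPM in surrounding cells (-4.20 ± 0.41, adjusted p = 0.000496). Atf3 fell 14.4-fold, Klf2, also an endothelial gene, 17.6-fold, and Hspa1a, a heat shock protein with a near-identical copy, 10.3-fold. Egr1 did not pass (-0.22 ± 0.24, adjusted p = 0.517), and Egr3 passed narrowly (0.50 ± 0.15, adjusted p = 0.0483), with 67.9, 63.1, 34.6 and 42.8 CPM in glioma cells and 37.3, 48.1, 32.8 and 27.3 CPM in surrounding cells. No gene of the list was higher without the block, at a count minimum of 50, or without 3228A, 3228B or 3229B. How far cell types with different responses to dissociation enter this difference was not tested.

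**Figure D4:**
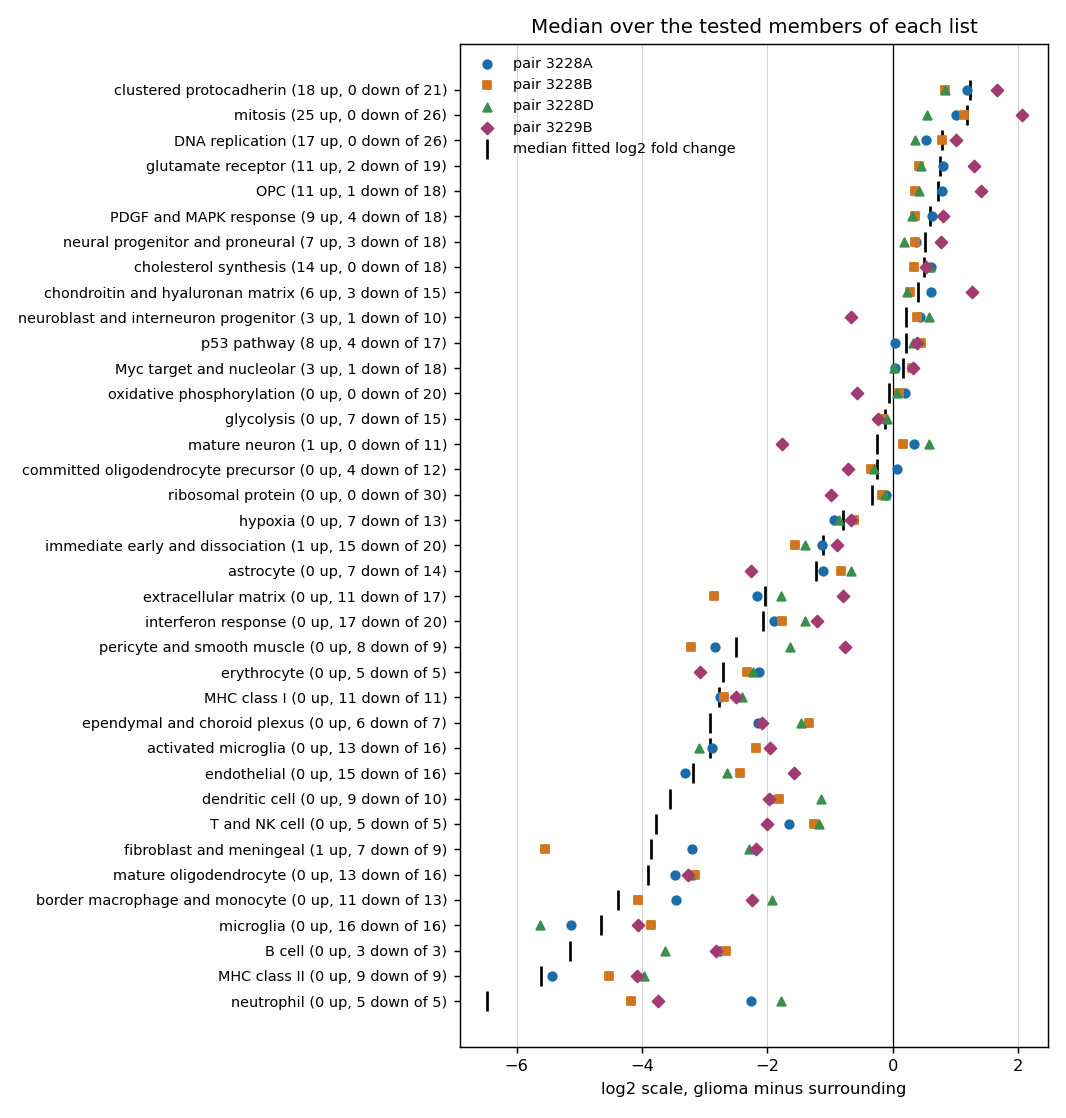
Median over the tested members of each of 37 gene lists, on the log2 scale of glioma minus surrounding, with the counts of called members beside the name. Coloured points are the 4 pairs, as differences of log2(CPM + 1), and the black mark is the median fitted log2 fold change. The pair of 3229B lies highest for OPC and mitosis genes and lowest for mature neuron genes.

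The same comparison was set beside those of the symptomatic stages, taken at 35 to 50 days (early) and 100 to 175 days (late), which share no library with it. A fit of all 24 libraries by group means called 244 higher (1.3%) and 2348 lower genes (12.5%) of 18810 in the asymptomatic stage, 199 (1.06%) and 2337 (12.4%) in the early and 2899 (15.4%) and 3739 (19.9%) in the late symptomatic stage. In this fit the median log2 fold change of the OPC markers was 0.68 in the asymptomatic, 0.70 in the early and 1.49 in the late stage. That of microglia markers was -4.53, -6.13 and -4.26 in the same order of stages, and that of mitosis genes 1.22, 0.80 and 1.62. Whether the stages differ was tested gene by gene as an interaction. No gene passed against the late or against the early stage, with lowest edgeR adjusted p of 0.312 and 1, and 1585 and 290 genes had an unadjusted p under 0.05. DESeq2 called 18 genes against the late stage, 11 with a larger and 7 with a smaller value of glioma minus surrounding in the asymptomatic stage, and 1 against the early stage, the predicted gene Gm49369. Among the 18, the growth factor Mdk (-1.88 on the log2 scale, DESeq2 adjusted p = 0.0345) and the neuronal hydrolase Uchl1 (-1.88, adjusted p = 0.0336) were smaller in the asymptomatic stage.

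The test against the late stage depended on 1 tumour. Its glioma library is the 1 glioma library of the 24 that is labelled RED and not GFP, and the part of the label in the result was not tested. Without this tumour, 3057E, taken at 100 days, 1435 of 19254 genes passed (7.45%), 813 with a larger and 622 with a smaller value of glioma minus surrounding in the asymptomatic stage; no other tumour of either stage, left out, gave a call. The fit without 3057E is described because it gave calls, and its adjusted p values do not account for that choice. Its late stage holds only tumours 3054A, 3054B and 3054C. In that fit 13 of 16 microglia markers and 13 of 16 genes of activated microglia were larger, that is less far below surrounding cells, in the asymptomatic stage (median log2 differences of 3.82 and 4.56, against -0.03 over all genes). Apoe differed by 3.68 ± 0.78 (edgeR adjusted p = 0.00631). On the smaller side were 6 of 18 neural progenitor genes, such as Fabp7 (-2.65 ± 0.48, adjusted p = 0.00249), and 3 of 18 OPC markers, while 0 of 26 mitosis genes were called. Cdkn2a passed in that fit, with a log2 difference of -1.9 ± 0.57 (edgeR adjusted p = 0.0461). In all 24 libraries it did not pass (-1.65, edgeR adjusted p = 0.553), and its log2 fold change was 0.99 ± 0.49 in the asymptomatic, 1.18 ± 0.49 in the early and 2.63 ± 0.50 in the late stage.

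**Figure D5:**
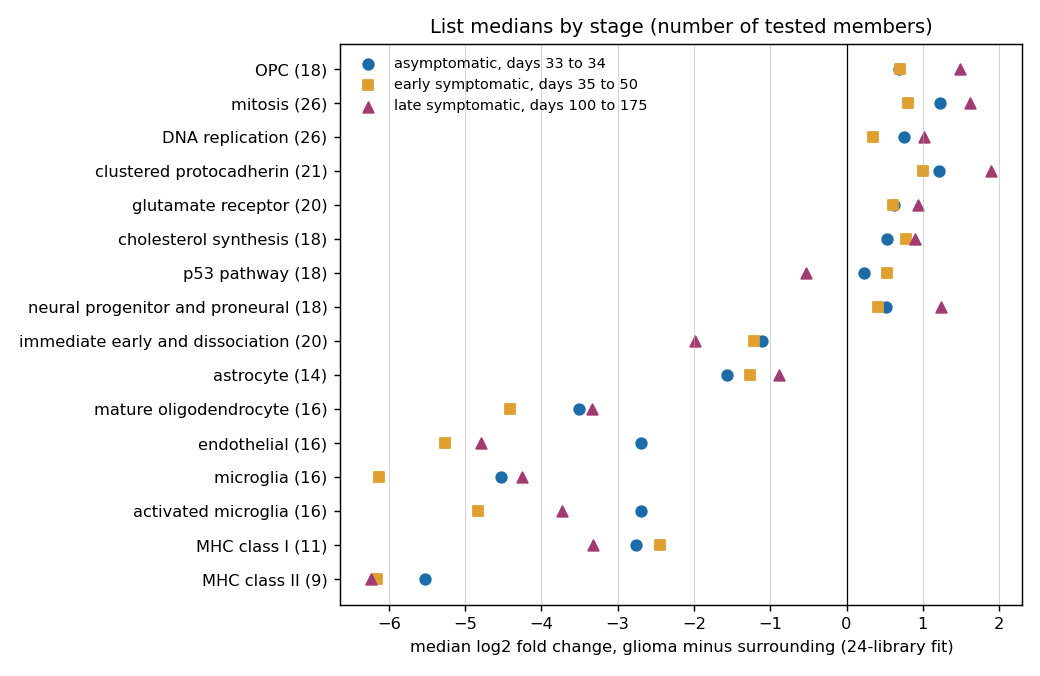
Median log2 fold change of glioma over surrounding cells for 16 gene lists in the asymptomatic (days 33 to 34), early symptomatic (days 35 to 50) and late symptomatic stage (days 100 to 175), from 1 fit of all 24 libraries. OPC markers stood at 0.68, 0.70 and 1.49, and no gene passed the test of a difference between the asymptomatic and another stage in edgeR.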

How the data were processed

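The RNA of 24 libraries was measured by RNA-seq of polyadenylated RNA, of which the 8 of the asymptomatic stage carry the comparison. Per the labels' protocols, tissue was dissected under fluorescence and cells were sorted by it, and libraries were made with the CORALL total RNA-seq kit. The submitters' processing notes name STAR 2.7.5c, RSEM 1.3.1 and build GRCm38 (mm10). The annotation release, the strand setting and any use of molecular identifiers are not given in the sources used here. The authors deposited expected counts per gene, as RSEM estimates them, for 55938 genes. Of the values, zeros included, 13.2% to 16.5% per library were not whole, and they were rounded. Coordinates come from GENCODE release M21, which held 98.6% of the identifiers, and promoters from RefSeq.

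Counts were scaled by TMM, filtered with filterByExpr at a minimum count of 10 and fitted with edgeR 4.0.16 (limma 3.58.1, R 4.3.3) by the quasi-likelihood test, with tumour code as a block. Values after ± are standard errors of log2 fold changes, obtained from the F statistic, and a gene was called at a Benjamini-Hochberg adjusted p under 0.05 over all genes tested. Every adjusted p is from edgeR unless DESeq2 is named. CPM was scaled by TMM over the 8 libraries and is not corrected for length. The pairing comes from the shared code, both populations being taken from 1 brain: the 2 libraries of a code deviated together from their group means (r of 0.34 to 0.52, against at most 0.16 with another code). Interactions between stages used group means in all 24 libraries. Totals of 1.09e+07 to 1.47e+07 set the precision of low counts. Alternatives were DESeq2 1.42.0, limma voom, other scalings and filters, the fit without block and leaving out each tumour. The fitting was tested on simulated data.

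Named were up to 15 genes per direction with the largest fold among called genes with mean log2 CPM of at least 3 and the same direction in all 4 pairs, up to 4 members of each of 37 lists with the smallest p, and a fixed set of anchors such as Pdgfb and Mbp. Predicted, mitochondrial, X-inactivation and Y-linked genes and immunoglobulin or T cell receptor genes were left out of the ranking. Other list members named were chosen after their values were seen. The gene lists and the comparison itself were chosen with earlier results of these data known.

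Some genes are not reported here.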

Additional observations from a re-analysis of the deposited data

Results flagged for a closer look

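In 120 groups of 4 libraries, made of single genes and list sums, 21 had 1 library whose gap to the nearest other took up nearly the whole range of its group by Dixon's test at 95%. The test's rate of 1 in 20 holds for independent groups of normally distributed values. These groups share libraries, hold sums beside their own members and include genes chosen after their values were seen. The number flagged can therefore not be set against that rate. Of the 21, 10 lay in surrounding cells of 3229B and 5 in glioma cells of 3229B.

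In surrounding cells of 3229B the values that stood apart were high: 13100 CPM of Mbp, 1420 CPM of Ttr, 1070 CPM of Hbb-bs, 1520 CPM of Ighm and 19.3 CPM of Rbfox3. The list sums there were 35600 CPM for mature oligodendrocyte, 2870 CPM for erythrocyte, 2210 CPM for mature neuron, 1530 CPM for ependymal and choroid plexus and 7010 CPM for astrocyte markers. In glioma cells of 3229B the values were 3.29 CPM of Cd74, 22.8 CPM of Ttr, 114 CPM of Hbb-bs, 49.9 CPM of Enpp6 and 323 CPM of the erythrocyte sum, each the highest of its group. Haemoglobin and choroid plexus transcripts were thus highest in both populations of that tumour.

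Glioma cells of 3228B stood apart with 139 CPM of Spry2 and 14.8 CPM of Hk2, both high, and with 112 CPM of Sqle, which was low. Glioma cells of 3228D were low in Rrm2 at 62.5 CPM. Surrounding cells of 3228A were high in Vit at 8.37 CPM, and those of 3228B in Col3a1 at 312 CPM.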

How the results depend on the processing

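The number of higher genes depended on the processing more than the number of lower genes. Against 2352 higher genes in the paired fit, 1074 were called without the replicate block (2445 lower), 244 in the fit of all 24 libraries by group means (223 of them shared), 546 with a fold of more than 2 and 28 in the test against a 2-fold change, which called 1495 lower. The fit without the block shared 1065 higher and 2419 lower genes with the paired fit. Leaving out 1 tumour gave 387 to 2546 higher and 1940 to 3421 lower genes, each time with 3 pairs. DESeq2, limma voom, other scalings and other count minimums gave 1893 to 3492 higher and 2215 to 3602 lower genes. Against the late stage edgeR called 0 genes, DESeq2 18, and leaving out 1 tumour 0 to 1435, the highest without 3057E; against the early stage DESeq2 called 1. A replicate block in these stage tests called 0 genes, with the codes as labelled and with 3108D and 3109D exchanged, whose sex-linked genes disagree with their pairing. Of 176 named genes, 135 kept their direction and call without the block and 41 lost the call. Scaled by library totals, 164 kept both, 10 lost the call and 2 turned direction, neither of them called: the Pdgfb log2 fold change to 0.174 and the Sdha log2 fold change to 0.000576. Leaving out 1 tumour, the Pdgfb log2 fold change ranged from -0.304 (3228B) to 0.166 (3228A), with 0.146 without 3228D, and the Rbfox3 log2 fold change from -1.22 (3228A) to 0.00104 (3229B). The causes were not tested. Depth limits genes near 0 in glioma cells, whose folds rest on a few counts.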
